A study of Mus with 2 samples.

Results

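The genes described here handle iron and heme in macrophages. They are the 10 genes Tfrc, Slc11a1, Slc11a2, Fth1, Ftl1, Slc40a1, Cp, Ireb2, Blvra and Blvrb, of 20144 genes with a named probe on the array. They were taken as a list of symbols, and a probe was assigned to a symbol when its transcript accession belonged to it in RefSeq. All 10 were measured, by 14 probes at 23 spots.

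BMDMs were grown from bone marrow of male C57BL6/J mice aged 10 weeks with 10 ng/mL of M-CSF for 7 d. Both groups were then held under M2 conditions, with 10 ng/mL of IL-4 for 24 h, and received either DMSO, the solvent, or 10 µM of GW4064, a synthetic agonist of the nuclear receptor FXR, over the same 24 h. Each group was read on 1 array, and the labels name no further samples of either. Replicate error is therefore unknown, no p-value can be given, and how precise any value is rests on this single array per group. The comparison asks which transcripts differ when GW4064 is present during M2 polarization.

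Macrophages take iron from transferrin and, above all, from the hemoglobin of engulfed red cells, keep it inside ferritin, and return it to the blood through the exporter ferroportin. Iron-regulatory proteins bind hairpins in the transcripts of ferritin, ferroportin, the transferrin receptor and Slc11a2, and so set the translation or the stability of these transcripts by the iron level of the cell. Alternatively activated macrophages are known for releasing iron, and classically activated ones for retaining it.

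The 10 genes differed little between the arrays. None was 2-fold or more higher and none was 2-fold or more lower with GW4064, against 2.04% of the 13533 measured genes that were 2-fold or more higher and 2.71% that were 2-fold or more lower. Slc40a1, which encodes ferroportin, and Slc11a1, which encodes a transporter of the phagosome, had the largest differences, 1.20-fold and 1.17-fold higher. The transferrin receptor Tfrc was 9.66% higher, and the ferritin genes Fth1 and Ftl1 were at 0.97 and 0.98 of their DMSO value. The log2 difference, GW4064 minus DMSO, had a median of 0.042 over the 10 genes and 0.0069 over all measured genes. It was above 0 for 6 of the 10 genes and for 51.6% of all measured genes.

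Differences of this size have to be read against the error of a single spot. The scanner software gives each spot an error, which for the 10 genes amounted to a log2 difference between 0.20 and 0.22. This error was close to a fixed share of the signal, such as 18726 at a signal of 187263 for Fth1 with DMSO. It is that of a single spot and was not reduced for genes averaged over several probes or copies, such as Tfrc. Of the 10 genes, 2 differed by more than this error, namely Slc40a1 and Slc11a1, and 0 differed by more than 2 such errors. Of the probes printed in 10 copies, 227 had at least 8 unmarked copies, all well above background on both arrays. The log2 difference of these probes varied among the copies with a median SD of 0.076. Of the 10 genes, 5 differed by no more than that, beside 4505 of all 13533 measured genes. For 2711 genes measured by 2 probes, the log2 differences of both probes lay a median of 0.10 apart, and 10% of the genes had a gap above 0.32.

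**Figure D1:**
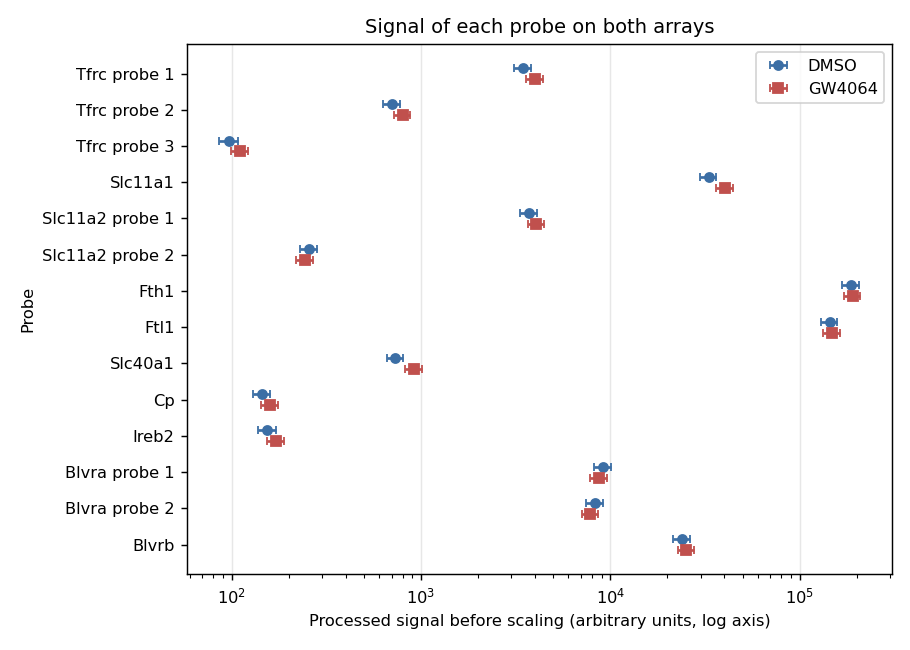
Processed signal of each of the 14 probes, before scaling between arrays (log axis, arbitrary units), with the scanner software's error as bars. Circles are the DMSO array and squares the GW4064 array. The pair of each probe lies close together, from Tfrc (3455 and 4002 for its brightest probe) to Ftl1 (144270 and 148639). Brightness is not compared between probes.

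Scaling set the level against which these differences were read. On the log2 scale, 0 stands for the 75th percentile of the signal, which was 1209 with DMSO and 1265 with GW4064. When the arrays were instead centred on the added spike-in RNA, the median difference of all genes moved from 0.0069 to -0.16, and 2 of the 10 genes were higher and 8 lower. The median of the 10 genes was then -0.13, which was 0.034 above that of all genes, as in the main scaling (0.035 above). Among all genes past 2-fold, 42.9% were higher in the main scaling, 30.7% with spike-in centring and 52.9% after a normexp background correction. Parts of the slide are called damaged areas here where a spot had, within 300 µm, 2 or more others with an 8-fold gap between the arrays. Of the 23 spots, 3 lay in such areas, all of them copies of a Tfrc probe.

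Tfrc encodes the receptor that brings transferrin-bound iron into the cell. It had 3 probes, and all 3 were slightly brighter with GW4064. The probe printed 10 times had signals between 3108 and 3841 with DMSO, with a median of 3428 over the 8 copies kept. With GW4064 its signals lay between 3775 and 4104, with a median of 4041 over 9 copies. After scaling, 2 of the 8 DMSO copies reached the range of the GW4064 copies, so that the sets of spots overlapped. At the 8 positions kept on both arrays the GW4064 spot was higher each time, with a mean log2 difference of 0.15 ± 0.093 (SD, n = 8 copies). Copies on 1 array share 1 RNA sample, so this SD describes the printing and reading of the spots and not a difference between cultures.

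The second Tfrc probe read 704 with DMSO and 801 with GW4064, or 0.12 on the log2 scale, and the third read 96.9 and 111, or 0.13. The mean over the 3 probes was 0.13, and 47.6% of all measured genes differed by at least as much in either direction. Without the damaged areas the difference was 0.13, and with spike-in centring it was -0.034.

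**Figure D2:**
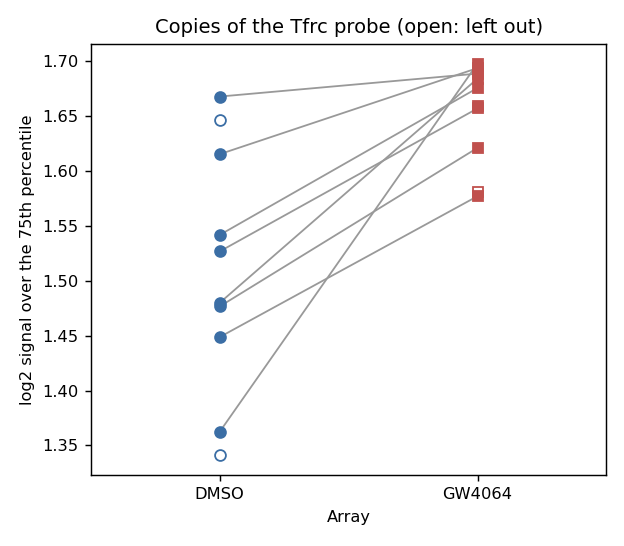
The 10 copies of the Tfrc probe on each array, as log2 signal over the 75th percentile of the array, with lines joining the same position on both arrays. Open symbols were marked by the scanner software and left out. All 8 joined positions are higher with GW4064, by 0.021 to 0.34 on the log2 scale, and the DMSO copies scatter more widely than the GW4064 copies.

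Tfrc is known to be abundant in dividing cells and in red cell precursors. Of 8 markers of dividing cells, all measured, 7 were higher and 1 was lower with GW4064, with a median log2 difference of 0.20. Their summed signal was 119405 with DMSO and 129222 with GW4064. Summed signals are unscaled here and below, on arrays whose 75th percentile was 1209 with DMSO and 1265 with GW4064. The brightest probe of that list, for Pcna, had a log2 difference of -0.065. With spike-in centring, 5 of the 8 markers were higher and the median was 0.032. The part of dividing cells in the value of Tfrc was not tested. The erythroid markers Hbb-bs, Slc4a1 and Epb42 were not well above background on either array, and of the 6 measured erythroid markers 2 were higher and 4 lower, with a median log2 difference of -0.30. Their summed signal was 572 and 611, most of it from Ermap, which went from 365 to 474, a log2 difference of 0.31. Hba-a2 and Epor had -0.25 and -0.36. Hba-a1 was at least 1.61-fold lower, from a signal of 23.3 to one not well above background. Another globin gene, Hbb-bt, was at least 1.61-fold higher, well above background only with GW4064, at a spot in a damaged area. Klf1 was at least 3.75-fold lower, from a signal of 54.2 to one not well above background, at a spot in a damaged area.

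Slc11a1, also called Nramp1, encodes a metal transporter of the phagosome membrane that moves iron out of the compartment, and C57BL/6 mice are known to carry an allele whose protein does not work. The array reads its transcript, not the protein. The single probe had a signal of 33089 ± 3309 (scanner error) with DMSO and 40431 ± 4043 with GW4064. The log2 difference was 0.22, or 1.17-fold, against a scanner error of 0.20, and 30.1% of all genes differed by at least as much. It was above 0 in all 12 alternatives, from 0.057 with spike-in centring to 0.27 when the median difference of the spots around it was subtracted.

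Slc11a2, also called Dmt1, is the related transporter that carries ferrous iron out of endosomes. Its probes disagreed in direction. The brighter one read 3731 with DMSO and 4071 with GW4064, or 0.060 on the log2 scale, and the other read 257 and 245, or -0.14. Both lie within the scanner error of 0.20 and 0.21, and their mean was -0.038. No direction can be given for this gene.

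Fth1 and Ftl1 encode the heavy and light chains of ferritin, the shell in which iron is stored. The Fth1 probe had a signal of 187263 ± 18726 (scanner error) with DMSO and 190634 ± 19063 with GW4064, and after scaling a log2 difference of -0.040. The Ftl1 probe had 144270 ± 14427 and 148639 ± 14864, or -0.023 on the log2 scale. Each chain thus differed by less than the copy SD of 0.076, and 81.8% and 89.3% of all genes differed by at least as much as Fth1 and Ftl1. Both became slightly positive, 0.031 and 0.028, when the median difference of neighbouring spots was subtracted, and lower, -0.21 and -0.19, with spike-in centring. No spot on either array was saturated. The mouse genome holds pseudogenes of both chains, and whether these probes also capture such transcripts was not tested. Translation of ferritin, at which iron is known to act, is not read by an array.

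**Figure D3:**
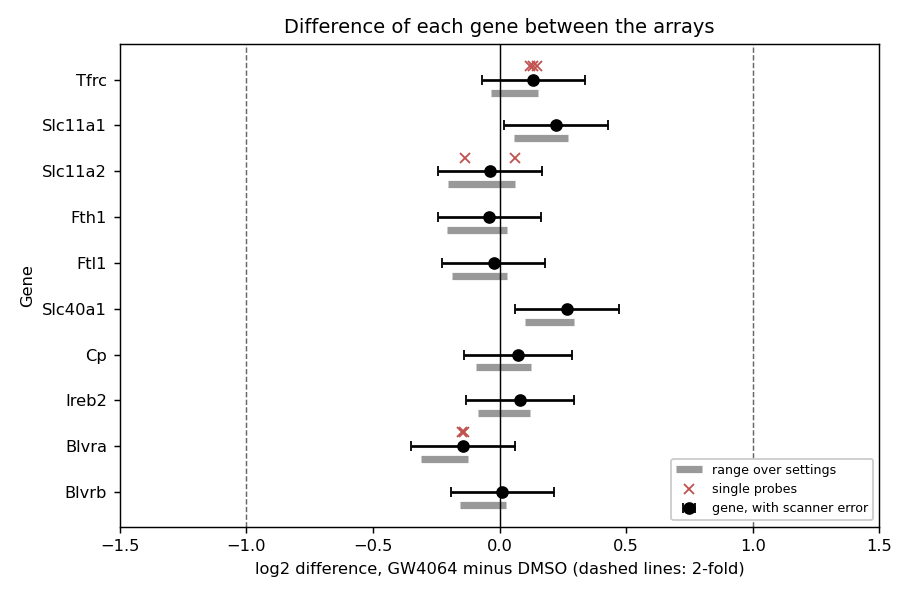
The log2 difference, GW4064 minus DMSO, of each of the 10 genes (black points), with the scanner software's error as bars, the single probes of genes with several probes as crosses and the range over all 13 settings as grey bars. Dashed lines mark 2-fold. Slc40a1 (0.27) and Slc11a1 (0.22) are the only genes whose error bar does not reach 0, and every grey bar stays inside the dashed lines. The error bars are those of a single spot, also for genes with several probes or copies.

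Slc40a1 encodes ferroportin, the only known exporter of iron from mammalian cells. Its probe had a signal of 732 ± 73.3 (scanner error) with DMSO and 922 ± 92.2 with GW4064. The log2 difference of 0.27, or 20.2%, was the largest of the 10 genes and 1.30 times its scanner error of 0.20. Of all measured genes, 25.0% differed by at least as much in either direction and 12.3% were at least as high. The difference was above 0 in all 12 alternatives, between 0.099 with spike-in centring and 0.29 after the normexp correction. The spots within 500 µm of this probe had a median difference of 0.021 and none within 300 µm had an 8-fold gap. The probe was printed once and is the only one for this gene.

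Cp encodes ceruloplasmin, the copper ferroxidase that oxidises iron as it leaves the cell. Its probe read 145 ± 15.3 with DMSO and 159 ± 16.5 with GW4064, and its log2 difference of 0.073 lay within the scanner error of 0.21. Ceruloplasmin is also made by other cells, and markers of stromal cells moved more than Cp did. Of 12 such markers 11 were measured, 1 of them higher and 10 lower, with a median log2 difference of -0.76 and a summed signal of 38526 with DMSO and 21785 with GW4064. The brightest, Sparc, had log2 differences of -0.90 and -0.69 on its probes, and Col1a2 one of -0.99. Grem1 was 4.13-fold and Postn 2.16-fold lower. In RNA from a whole culture, fewer cells of a type and less RNA per cell cannot be told apart. The part of stromal cells in the value of Cp was not tested.

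Ireb2 encodes iron-regulatory protein IRP2, which binds the hairpins of iron transcripts when iron is scarce. Its probe had a signal of 155 ± 16.2 with DMSO and 171 ± 17.7 with GW4064, and its log2 difference of 0.080 lay within the scanner error of 0.21. With spike-in centring the value was -0.087. Aco1, which encodes the other iron-regulatory protein, had a log2 difference of 0.17, with signals of 180 and 212. Fbxl5, whose protein removes IRP2 when iron is plentiful, had -0.17, from 923 to 859, the lowest value in its list.

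Blvra and Blvrb encode biliverdin reductases, which turn forms of biliverdin into bilirubin. The probes for Blvra agreed closely. The brighter read 9158 with DMSO and 8704 with GW4064, or -0.14 on the log2 scale, and the other read 8324 and 7858, or -0.15. Their mean of -0.14, or 0.91 of the DMSO value, was the lowest value of the 10 genes, lay within the scanner error of 0.20, and stayed below 0 in all 12 alternatives, from -0.31 with spike-in centring to -0.12. Of all measured genes, 44.9% differed by at least as much. Blvrb read 23995 ± 2400 (scanner error) with DMSO and 25296 ± 2530 with GW4064. Its log2 difference was 0.011, and its sign turned in 4 of the 12 alternatives. The difference between both enzymes was not tested.

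**Figure D4:**
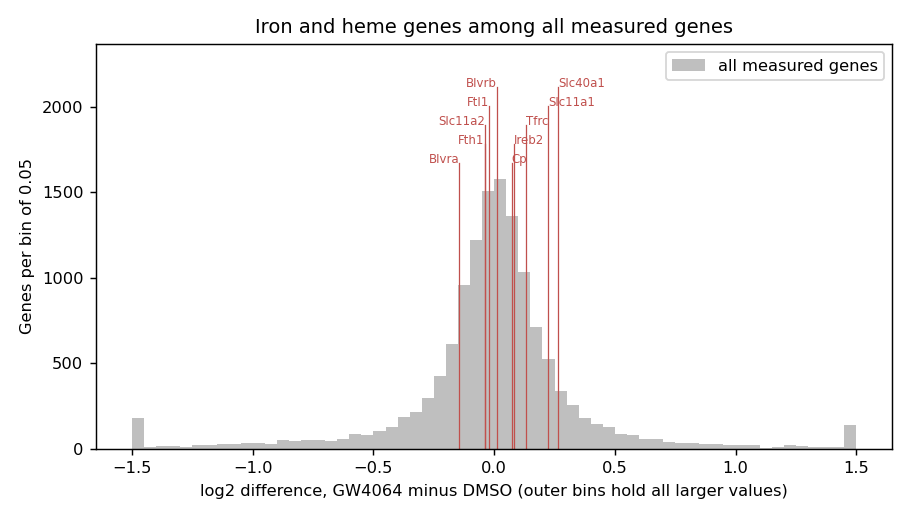
Number of measured genes per bin of 0.05 of the log2 difference, GW4064 minus DMSO (grey, 13533 genes, outer bins holding all larger values), with the 10 iron and heme genes as red lines. All 10 lie between -0.14 and 0.27, inside the range from -0.65 to 0.53 that holds the middle 90% of genes.

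The rest of the iron and heme pathway was read from 6 lists with 62 other genes, of which 51 were measured. Of all measured genes 51.6% were higher, and of these 51 genes 31 were higher and 20 lower. The 2-fold threshold was passed upwards by 0 and downwards by 1 of them, beside the shares of 2.04% and 2.71% over all genes. Their median log2 difference was 0.057. With spike-in centring, which moved the median of all genes to -0.16, more genes were lower than higher in each of the 6 lists. Of the 51, 4 differed by 0.5 or more, namely Hamp2, Lcn2, Hpx and Epas1. The middle 90% of all measured genes lay between -0.65 and 0.53.

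For iron import, 9 of 11 genes were measured, 6 higher and 3 lower, with a median of 0.085. With spike-in centring 1 was higher and 8 lower, with a median of -0.082, which was 0.077 above that of all genes. The highest was Slc22a17, the receptor for lipocalin 2, at 0.19, at a spot in a damaged area. The lowest was Lcn2, which encodes lipocalin 2, the protein that captures the iron carriers of bacteria and is abundant in neutrophil granules. It read 266 with DMSO and 168 with GW4064, or -0.72 on the log2 scale, and was lower in all 13 settings. Of 9 neutrophil markers 8 were measured, of which 7 were lower and 1 was higher, with a median of -0.62 and a summed signal of 14370 with DMSO and 9476 with GW4064. The brightest of them, S100a9, went from 8136 to 4614. The part of neutrophils in the value of Lcn2 was not tested. The transcript for transferrin itself, Trf, was bright on both arrays, with unscaled probe signals of 110376 and 113751 and of 55250 and 55451. After scaling to the 75th percentile the log2 differences of these probes were -0.022 and -0.060, and the gene was lower in all 13 settings, between -0.21 and -0.022.

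For iron export and its control by hepcidin, 3 of 8 genes were measured. Hamp, which encodes hepcidin, and Heph, Hephl1, Bmp6 and Tmprss6 were not well above background on either. Hamp2, a close relative of Hamp, was 2.71-fold lower, but from a dim signal of 63.6 to 24.5 read at 1 spot. Its log2 difference of -1.44 was -0.50 after the normexp correction. That correction adds 50 to every signal, which by itself shrinks the differences of dim probes. Hfe, a partner of the transferrin receptor, had -0.13. Hjv was at least 1.26-fold higher, from a signal not well above background to 20.8 at a spot in a damaged area.

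In the list of storage, chaperones and regulators, 8 of 9 genes were measured, 4 higher and 4 lower, with a median of 0.0024. Epas1 encodes HIF-2 alpha, a hypoxia factor whose transcript carries an iron-responsive hairpin of its own. It had the highest value, 0.70, but its probes disagreed. They went from 2158 to 4396, from 97.0 to 198 and from 2054 to 2405, log2 differences of 0.96, 0.96 and 0.16. The gene was higher in all 13 settings, between 0.53 and 0.96, the higher value coming from its brightest probe alone. Among the iron chaperones, Pcbp1 had 0.084, at a spot in a damaged area, and Pcbp2 had 0.12.

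For heme uptake, transport and breakdown, 10 of 12 genes were measured, 4 higher and 6 lower, with a median of -0.15. Hmox1, the inducible heme oxygenase that precedes Blvra in the pathway, had log2 differences of 0.14 and 0.11 on its probes. The signals went from 26069 to 30018, at a spot in a damaged area, and from 2535 to 2869. Hmox2, the constitutive enzyme, had 0.18 and 0.16. Both oxygenases were thus slightly higher and Blvra slightly lower, all below the scanner error of 0.20, and with spike-in centring Hmox1 was -0.042. Abcg2, an exporter of heme and related rings, was the highest of the list at 0.24. Hpx, the plasma carrier of heme, was the lowest at -0.68, from a dim signal of 47.5 to 31.1. It had -0.24 after the normexp correction, whose added 50 by itself shrinks the differences of dim probes. Slc48a1, which moves heme out of the phagolysosome, had -0.15. Cd163, the receptor for hemoglobin, did not stand well above background with DMSO or GW4064.

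For heme synthesis, 11 of 12 genes were measured, 7 higher and 4 lower, with a median of 0.078. With spike-in centring 2 were higher and 9 lower, with a median of -0.089, which was 0.070 above that of all genes. The mitochondrial transporter Abcb10 was the lowest, at -0.13, at a spot in a damaged area. Alas1, the first enzyme of the pathway outside red cells, had 0.33 and 0.090 on its probes. Alas2, its red cell form, did not stand well above background with DMSO or GW4064. For mitochondrial iron and iron-sulfur clusters all 10 genes were measured, 9 higher and 1 lower, with a median of 0.074. Glrx5, a factor in building these clusters, had 0.29, and Iscu, their scaffold, was the lowest at -0.036. With spike-in centring, 4 of the 10 were higher and the median was -0.093, which was 0.066 above that of all genes.

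**Figure D5:**
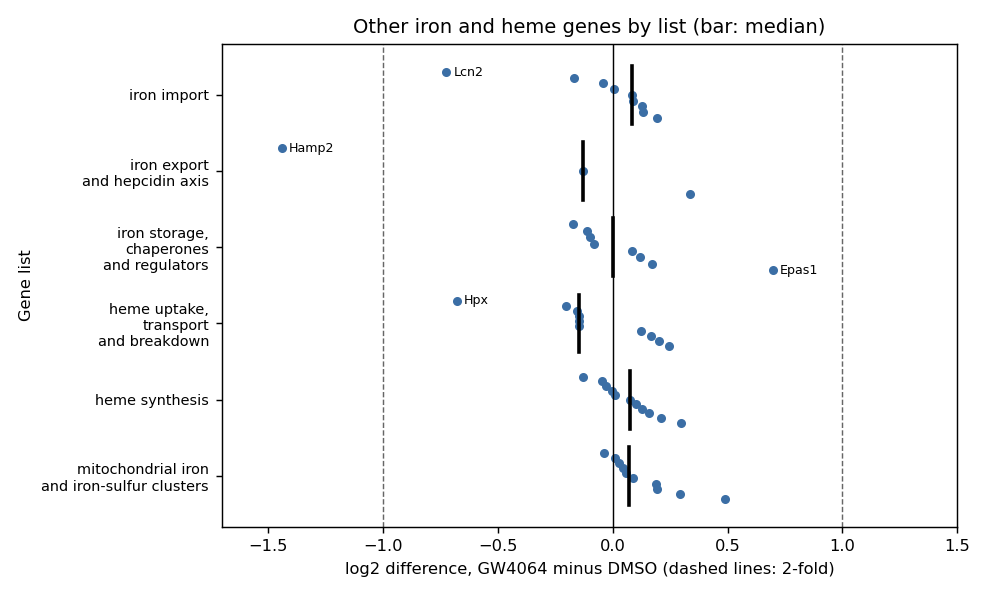
The log2 difference, GW4064 minus DMSO, of the 51 measured genes of 6 other iron and heme lists, 1 point per gene, with the median of each list as a black bar and dashed lines at 2-fold. Hamp2 is the only point past a dashed line. The names of genes differing by 0.5 or more are given.

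The cultures carried the markers of macrophages. Of 8 such markers 7 were measured and each was well above background on both arrays, among them Csf1r, whose brightest probe had 169338 and 161892, and Lyz2 with 28325 and 30947. They were 5 higher and 2 lower, with a median log2 difference of 0.058. With spike-in centring, 0 were higher and 7 lower, and the median was -0.11, which was 0.050 above that of all genes. Cd68 had no probe matched by accession.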

How the data were processed

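RNA from BMDMs given DMSO or GW4064 was labelled with Cy3 and read on 1-colour Agilent 44K mouse arrays, 1 per condition. The authors deposited scanner intensities from Agilent Feature Extraction 10.7.1.1, background-subtracted and detrended within each array but not scaled between arrays, each with the software's own error. They also deposited a log2 table, whose column difference equalled the one computed here for 39200 probes apart from a constant of 0.0022. Its baseline is not given in the sources used here.

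Processed signals were taken to log2 and each array was shifted so that its 75th percentile was 0. Spots marked as non-uniform or as outliers were left out (399 with DMSO, 207 with GW4064), spots of 1 probe were averaged, and a probe counted as well above background where 50% or more of its spots did. Each gene was given the mean of those of its probes that passed on either array. Symbols came from RefSeq accessions of GRCm38.p6. The array design names another build, so no coordinates are given.

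No test was possible with 1 array per condition, and 2-fold was the threshold. The members, the 6 lists of other iron and heme genes and the 7 marker lists were chosen with earlier results of these data known. Every member was named. Of the other iron and heme genes, those past 2-fold and the extremes of each list on both arrays were named, and of the marker lists those past 2-fold and the brightest. A few of these genes are not reported here. A few other genes, among them Hmox1, Hmox2, Aco1, Trf, Slc48a1, Glrx5 and Col1a2, were named after their values were seen. On simulated data for GW4064 against DMSO over 22731 probes, 200 of 200 probes changed 4-fold were recovered and 0 others passed 2-fold. Only 4-fold changes were simulated, so this check of the calculation says nothing about differences as small as those of the members. It also cannot show how much cultures vary, because simulated data hold no cultures. Alternatives covered scaling, background correction, filters, probe choice, the 1.5-fold threshold and damaged areas of the slide. The normexp correction used limma 3.58.1 in R 4.3.3, with 50 added to every signal. All else used Python 3.11.15 with pandas 2.3.3, numpy 2.4.6, statsmodels 0.14.6 (loess) and scipy 1.17.1.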

Additional observations from a re-analysis of the deposited data

How the results depend on the processing

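No paired analysis was possible because DMSO and GW4064 were read on a single array each. The counts of 0 genes past 2-fold each way among the 10 stayed 0 in every alternative, and also at 1.5-fold. Of the 120 values of single genes over 12 alternatives, 109 moved by less than the copy SD of 0.076 and 11 by more, of which 10 came from spike-in centring and 1 from taking the brightest Slc11a2 probe (0.060). The median of the 10 genes was -0.13 with spike-in centring. Spike-in centring turned the signs of Tfrc (-0.034), Ireb2 (-0.087), Cp (-0.094) and Blvrb (-0.16). Of the 62 other iron and heme genes, the count 2-fold or more higher went from 0 to 1 without a filter on dim probes or at 1.5-fold, and the count lower from 1 to 2 without the filter, to 3 at 1.5-fold and to 0 after the normexp correction. Of all probes, 510 were 2-fold or more higher and 659 lower. Without a filter on dim probes these were 1637 and 1664, over 39200 probes instead of 23749. With probes well above background on both arrays, fewer probes were tested, and the counts were 178 and 278. After normexp, which adds 50 to every signal and so shrinks the differences of dim probes, they were 112 and 120. Without damaged areas they were 277 and 338, again over fewer probes. Such areas are defined by 8-fold gaps, so that leaving them out removes large differences by construction. How much each of these points contributed was not tested. Subtracting the median difference of spots within 500 µm was chosen after the data were seen. Cp, Ireb2 and the third Tfrc probe were the dimmest, at 96.9 to 155 with DMSO, against a lowest signal well above background of 15.7.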

Other observations

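Of 7 dendritic cell markers 5 were measured, 2 higher and 3 lower, with a median log2 difference of -0.041. The brightest, Itgax, went from a signal of 186594 to 159127, at a spot in a damaged area. Flt3, read with GW4064 at 81.5 at a spot in a damaged area, was at least 4.94-fold higher. Its other probe read 3.80 with DMSO and 5.31 with GW4064, not well above background on either array. Of 7 lymphoid markers 3 were measured, 1 higher and 2 lower, with a median of -0.13. The brightest, Nkg7, went from 3197 to 3066, and Ms4a1 was at least 2.47-fold lower, from a signal of 35.8 to one not well above background. Cd3d, Cd79a and Ncr1 were not well above background on either array.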
